A study of Mus musculus with 6 samples.

Results

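The genes described here encode the proteins of the mitochondrial ribosome, and they were chosen by name: every protein-coding gene of the table whose mouse symbol begins with *Mrpl* or *Mrps* followed by a number, without the entries marked as pseudogenes. This rule, which uses no measured value, gave 78 genes of the 46983 listed. They were measured by bulk RNA-seq in splenic B cells of mice cultured under conditions that direct class switching to IgA, in 3 WT and 3 *Hif1a* KO libraries. All 6 cultures were kept until day 3 with 5 μg/ml of LPS, which activates B cells, together with BAFF, IL-5 and TGF-β, each at 10 ng/ml. Per the study's methods, follicular B cells (CD21int CD23+) were taken from the spleen by cell sorting before such cultures, whereas the labels name only splenic B cells. In the KO mice, on the C57BL/6 background, both *Hif1a* alleles were floxed and an *Mb1*-cre allele drove the deletion in B-lineage cells from early stages on. The WT controls were littermates of either kind, heterozygous for the floxed allele with cre or homozygous for it without cre, and the kind behind each WT library is not given. Nor do the labels tie the libraries to separate mice, so the p-values measure the spread between these libraries, which may be technical.

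Mitochondria carry their own small genome, and the few proteins it encodes, all of them subunits of ATP synthase or of complexes of the respiratory chain, are made on ribosomes inside the organelle. The RNAs of these ribosomes come from the mitochondrial genome, whereas all their proteins are encoded in the nucleus, made in the cytosol and imported. The *Mrpl* genes are named for the large subunit, which forms the peptide bond, and the *Mrps* genes for the small subunit, which reads the mRNA. Some of the proteins have counterparts in bacterial ribosomes (conserved below), and others are found only in mitochondria (mitochondria-specific below). B cells build up mitochondrial mass when they are activated, and HIF-1α, the protein that *Hif1a* encodes, is a transcription factor best known for driving glycolysis when oxygen is low.

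By these roles, 51 members belong to the large subunit, of which 30 are conserved and 21 mitochondria-specific, and 26 belong to the small subunit, of which 16 are conserved and 10 mitochondria-specific. The names do not always follow the subunit: the products of *Mrps30* and *Mrps18a* sit in the large subunit and were counted there. The last member, *Mrps36*, was named as a ribosomal protein, but its product is now placed with the 2-oxoglutarate dehydrogenase complex of the citric acid cycle, and it was kept apart. The members lie on 17 chromosomes, with 0 on the X chromosome.

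Promoter windows from RefSeq (GRCm38.p6) were found for 69 of the 78 members, 75 windows in all, each reaching from 250 bases before to 50 bases after a transcription start. The 100 bases before the start are shown for 4 members on which the results below turn, and for *Mrpl22* and *Mrpl32* as examples of an ETS and an NRF1 match. They are printed 5′ to 3′ on the strand of the gene. Capitals mark letters that match, on either strand, an ETS motif (CCGGAAG), an NRF1 motif (GCGCA followed by TGCGC), a YY1 motif (AAGATGGC) or the core of a hypoxia response element (ACGTG or GCGTG). ETS factors such as GABP, NRF1 and YY1 are known regulators of nuclear genes for mitochondrial proteins, and the hypoxia response element is the sequence HIF-1 binds.
*Mrpl28* (chr17:26123403-26123502, plus strand): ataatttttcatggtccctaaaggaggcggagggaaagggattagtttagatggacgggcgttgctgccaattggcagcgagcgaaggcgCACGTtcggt
*Mrpl9* (chr3:94443236-94443335, plus strand): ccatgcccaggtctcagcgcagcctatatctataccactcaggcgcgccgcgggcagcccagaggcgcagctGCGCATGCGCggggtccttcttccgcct
*Mrps10* (chr17:47369097-47369196, plus strand): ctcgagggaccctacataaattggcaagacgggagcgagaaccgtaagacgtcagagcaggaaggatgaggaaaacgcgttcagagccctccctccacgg
*Mrpl30* (chr1:37890377-37890476, plus strand): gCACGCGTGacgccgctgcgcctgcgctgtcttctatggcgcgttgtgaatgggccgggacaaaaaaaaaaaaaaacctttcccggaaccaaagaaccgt
*Mrpl22* (chr11:58171564-58171663, plus strand): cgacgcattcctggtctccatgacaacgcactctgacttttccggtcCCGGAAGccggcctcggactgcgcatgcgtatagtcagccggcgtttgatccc
*Mrpl32* (chr13:14613038-14613137, minus strand): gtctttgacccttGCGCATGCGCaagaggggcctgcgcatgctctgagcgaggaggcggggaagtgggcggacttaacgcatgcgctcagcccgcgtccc
The stretch shown for *Mrps10* holds none of these letters, and that of *Mrpl30* holds the hypoxia core on both strands, overlapping. Outside the stretches shown, the whole windows of *Mrps10*, *Mrpl9* and *Mrpl32* hold the hypoxia core, and that of *Mrpl32* also holds the YY1 motif. Over the whole windows, the ETS motif was present in 34.7% of the 75 windows of the members, against 18.7% of the 11601 windows of all genes tested and 8.86% of all 32851 windows of the same length. The YY1 motif was present in 16.0% of the members' windows, against 4.72% of those of the genes tested. NRF1 letters were in 4.0% against 2.22%. The hypoxia core, which is short, was in 66.7% of the members' windows, and it was also in 62.5% of those of the genes tested and in 43.8% of all windows. Its letters overlap those of the E-box (CACGTG), the binding site of MYC among others, which was in 9.33% of the members' windows and in 10.2% of those of the genes tested. For the genes of the cytosolic ribosome, the share with the ETS motif was 34.2%. The CCAAT box was in 40.0% of the members' windows and in 38.0% of those of the genes tested. These shares count windows, so a gene with several windows counts more than once, as *Mrpl2* does with overlapping windows that each hold the E-box. None of the shares was tested. A match describes the letters of a window, it does not show that a factor binds there, and no match says only that these letters are not in the window.

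Many of the members share their start region with a neighbour. For 23 of the 78 (29.5%), a protein-coding gene on the other strand starts within 1000 bases upstream or overlaps the member's start by under 200 bases, which is the case for 1743 of all 22028 protein-coding genes (7.91%). Among these neighbours are *Sars2*, the mitochondrial seryl-tRNA synthetase gene, beside *Mrps12*, the complex I subunit gene *Ndufs6* beside *Mrpl36*, and the proteasome gene *Psma2* beside *Mrpl32*. *Mrpl49* starts 59 bases from *Fau*, which encodes a cytosolic ribosomal protein fused to a ubiquitin-like one.

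The deposited values are FPKM, the reads on a gene divided by its length and by the reads counted in the library. Levels can therefore be compared between genes only as far as the length used for each gene holds. The length that gave whole reads was 283 (*Mrps16*) to 596 bases (*Mrpl20*) in the 5 highest members. It was 1072 (*Mrpl33*) to 2846 bases (*Mrpl1*) in the 5 lowest. Its part in the order of levels was not tested. Where 3 values are given for a group, they stand in the order of replicates 1, 2 and 3. Counted reads numbered from 25030210 to 37222477 per library, and a member rested on 152 to 3541 reads in a library. The libraries of a genotype did not all lie together: on the first principal component of all genes tested, with 54.7% of the variance, WT replicates 2 and 3 lay at 26.2 and 25.9 and WT replicate 1 at −15.7, among the KO libraries at −19.5 to −7.10. The B-cell marker genes were all present, with a summed FPKM of 6050 to 7736 per library, and T-cell markers summed to at most 1.41. Neutrophil marker genes summed to 37.6 in WT replicate 1 and to at most 0.528 elsewhere, with all 7 at 0 in KO replicates 1 and 3. Macrophage marker genes summed to 74.1, 171 and 119 in WT replicates 1, 2 and 3 and to 67.6 to 79.3 in the KO libraries, and dendritic cell markers to 11.96 to 14.9 in WT and 8.67 to 10.3 in KO libraries. Most of the macrophage sum came from *Adgre1*, at 59.8, 91.1 and 81.1 in the WT and 55.5 to 69.7 in the KO libraries. *Hif1a* itself had a mean FPKM of 44.0 ± 6.81 in WT and 48.3 ± 3.93 in KO libraries (SD, n = 3 each), a difference of 0.14 on the log2 scale that became 0.012 without WT replicate 1, 0.073 without KO replicate 3 and 0.23 without WT replicate 2. Since a gene's FPKM counts all its exons, these values cannot show the loss of the floxed part.

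All members but 1 were well above the detection limit in these B cells. The mean FPKM over the 6 libraries ran from 7.47 for *Mrpl33* to 122 for *Mrps21*, a 16.3-fold range, with a median of 34.6 over the 77 members tested, against 14.4 over all 13312 genes tested, which are those whose mean FPKM reached 0.5. At the top were *Mrps21*, a small-subunit protein with a bacterial counterpart, *Mrpl52* at 120, *Mrps16* at 93.2, *Mrpl18* at 85.0 and *Mrpl20* at 84.8. In *Mrps21* the values were 122, 117 and 124 in the WT libraries and 119, 124 and 126 in the KO libraries, and in *Mrpl52* they were 123, 118, 118 and 115, 114, 133. The groups overlapped in both genes, and in both the values spread over the same range, so the order of these genes is not resolved. *Mrpl18*, whose product lies in the central protuberance of the large subunit, and *Mrpl20* were likewise within each other's spread.

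The lowest members were *Mrpl33*, *Mrps34* at 8.12, *Mrps22* at 9.14, *Mrpl1* at 9.32 and *Mrps27* at 10.6. Of these, *Mrpl1* encodes the protein of the mobile stalk beside the exit site for tRNA, and *Mrps22*, *Mrps27* and *Mrps34* encode mitochondria-specific proteins of the small subunit. *Mrpl33* had an FPKM of 6.67, 8.14 and 8.76 in the WT libraries and 7.86, 7.20 and 6.21 in the KO libraries. *Mrps22* had 7.84, 10.3 and 10.2 in the WT libraries and 9.37, 8.58 and 8.52 in the KO libraries. In both genes WT replicate 1 was the lowest WT library and lay within or below the KO values, and along the order of these low members each range of values overlaps that of the next.

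By role, the median level was 37.6 for the conserved and 35.7 for the mitochondria-specific large-subunit members, 35.1 for the conserved small-subunit members and 14.3 for the 10 mitochondria-specific small-subunit members, among which only 2 exceeded an FPKM of 21. The plot of levels by subunit shows this class below the others. Some of these levels are uncertain, because reads on exons that overlap another gene can be left out of the count. Of the 78 members, 33 overlap another gene in at least some exonic bases, and 10 do so over more than 20% of them, among which *Mrps34* (77.8%), *Mrps25* (69.8%), *Mrps18b* (30.5%) and *Mrps27* (24.2%) are 4 of the 10 mitochondria-specific small-subunit genes. *Mrpl53*, a large-subunit gene on chromosome 6 (GRCm38, 83109040 to 83109939), was listed at 0 in all 6 libraries and was the only member not tested. Of its exonic bases, 88.0% are shared with *Gm42688*, listed at 0.0881 to 0.168 FPKM, and *Ccdc142os*, listed at 0.543 to 1.12. Whether *Mrpl53* was transcribed therefore cannot be read from this table. Processed pseudogenes of the family were low, with a mean FPKM of 0 to 1.89 over 5 entries, of which *Mrps36* has 3.

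**Figure D1:**
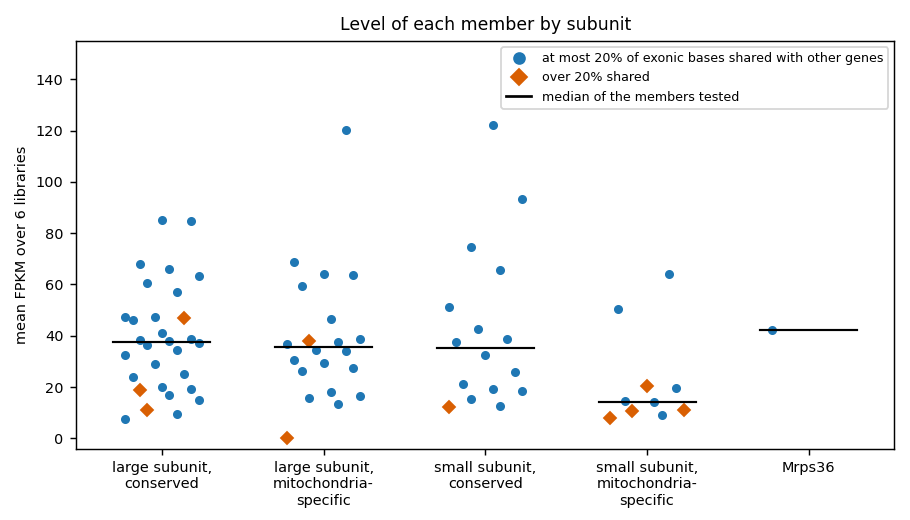
Mean FPKM over the 6 libraries (vertical axis) of each of the 78 members, by subunit and conservation, with a line at the median of the members tested in each class and orange diamonds for members that share over 20% of their exonic bases with another gene. The median of the mitochondria-specific small-subunit class lies at 14.3, those of the other subunit classes lie between 35.1 and 37.6, and the diamond at 0 is *Mrpl53*.

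The libraries differed little in these genes. The coefficient of variation of a member over all 6 libraries had a median of 6.08%. The highest library exceeded the lowest by more than 1.5 times in 2 members, *Mrps6* and *Mrps18b*. Neither value was set beside that of all genes, so a small spread is not shown to be particular to the members. Summed over the members, the FPKM was 2923, 2978 and 3048 in the WT libraries and 2848, 2801 and 2989 in the KO libraries. The groups overlapped, since KO replicate 3 lay above WT replicates 1 and 2. The ratio of the large-subunit to the small-subunit sum stayed between 2.16 and 2.23 in every library, with a mean of 2.196 ± 0.0226 in WT and 2.19 ± 0.0357 in KO cells (SD, n = 3 each). Among single libraries, WT replicate 2 or 3 was the highest in 44 of the 77 members tested (57.1%), against 46.9% of all genes tested, and KO replicate 2 was the lowest in 30 (39.0%), against 16%.

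Loss of *Hif1a* was then examined for each member. With all 6 libraries, 0 of the 77 members passed the test (limma on log2(FPKM + 1), Benjamini-Hochberg adjustment over all genes tested, smallest adjusted p among members 0.626), where 0 of all 13312 genes tested did (0%). The log2 fold changes between KO and WT ranged from −0.31 for *Mrps6* to 0.16 for *Mrpl9*, with a median of −0.061, against −0.028 over all genes tested. In 57 members the KO mean on this scale was below the WT mean and in 20 it was above, where 57.9% of all genes tested had a lower KO mean. With median-ratio scaling of the libraries this split was 44 to 33, with a median of −0.016 against 0.011 over all genes, and with quantile normalization it was 51 to 26. In bulk RNA, fewer cells of a type and less RNA per cell cannot be told apart.

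The precision of the comparison limits how large a difference could have gone unseen. The 95% confidence interval of the log2 fold change included 0 in 73 of the 77 members and lay within 0.5 of 0 in 74. Its median width was 0.35, against 0.52 over all genes tested and 0.43 over those whose mean FPKM reached 5, as that of every member tested did. The interval reached furthest down in *Mrps6*, to −0.79, and furthest up in *Mrpl34*, to 0.41. All 77 members had a log2 fold change within 0.32 of 0, as did 92.3% of the 9275 genes whose mean FPKM reached 5. This bound lies just above the member furthest from 0, *Mrps6* at −0.31. That all members fall within it therefore follows from the bound and does not set them apart from other genes. In the plot of intervals by member, the estimates form a continuous series in which large-subunit and small-subunit genes are mixed.

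**Figure D2:**
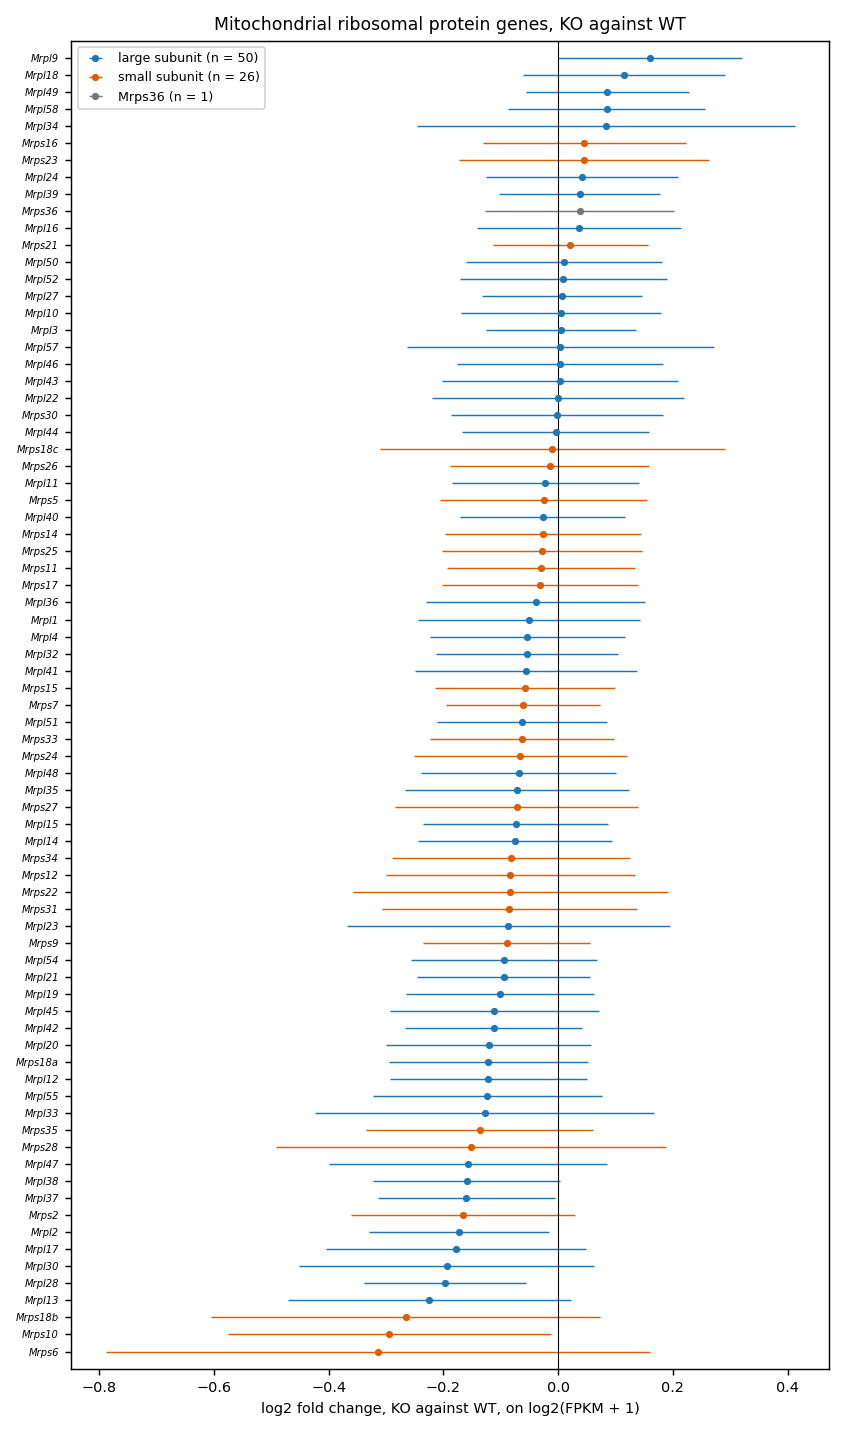
Log2 fold change of each of the 77 members tested, KO against WT on log2(FPKM + 1), with bars for the 95% confidence interval from limma (3 libraries per group), ordered by the fold change and coloured by subunit. The interval includes 0 in 73 members, and the estimates run from −0.31 (*Mrps6*) to 0.16 (*Mrpl9*).

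At an unadjusted p under 0.05 there were 4 members, *Mrps10*, *Mrpl28*, *Mrpl2* and *Mrpl37*, all with lower KO values, where 6.98% of all genes tested passed this bound (4.5% with lower and 2.48% with higher KO values). The KO values lay all below the WT values in 8 members (background 6.03%) and all above them in 3 (background 4.06%), where the groups did not overlap in 10.1% of all genes tested. The members with the lower KO values were *Mrpl28*, *Mrpl2*, *Mrps2*, *Mrpl37*, *Mrpl38*, *Mrpl55*, *Mrpl42* and *Mrps9*, and those with the higher ones were *Mrpl9*, *Mrpl49* and *Mrpl58*. The plot of single libraries shows most of these members with the others named for the size of their difference.

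**Figure D3:**
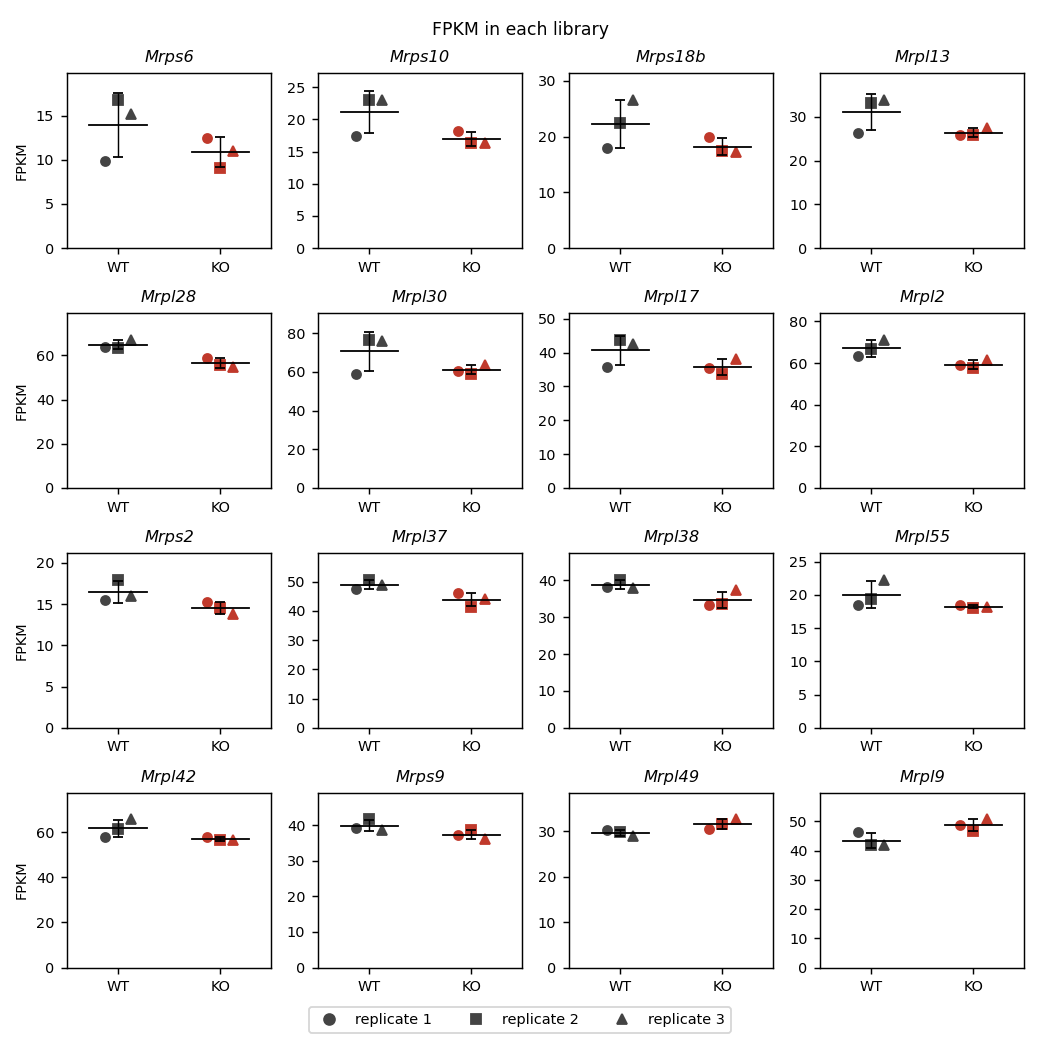
FPKM (vertical axes, each from 0) of 16 members in the 3 WT (grey) and 3 KO (red) libraries, with symbols for the replicate number, lines at the group means and bars of 1 SD. In *Mrpl28* the KO values of 54.6 to 58.9 lie below all WT values, in *Mrpl9* they lie above them, and in *Mrps6*, *Mrps10*, *Mrpl13* and *Mrpl30* WT replicate 1 lies among or near the KO libraries.

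In the conserved large-subunit class, 22 of 30 members had a lower and 8 a higher KO mean, with a median log2 fold change of −0.073. *Mrpl28*, the counterpart of bacterial L28 and the member with the smallest p, had an FPKM of 63.8, 63.5 and 67.1 in the WT libraries and of 58.9, 55.7 and 54.6 in the KO libraries. All KO libraries lay below all WT libraries, with WT replicate 1 on the side of its group. This is a log2 fold change of −0.20 (SE 0.060, adjusted p = 0.626 by limma and the Benjamini-Hochberg method), and it stayed between −0.23 and −0.17 when any single library was left out. *Mrpl2*, whose bacterial counterpart lies close to the centre where the peptide bond is formed, had 63.4, 66.6 and 71.2 in the WT libraries and 58.9, 57.6 and 61.4 in the KO libraries. Its groups did not overlap either, with a log2 fold change of −0.17 (SE 0.066).

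*Mrpl13* and *Mrpl30*, which encode conserved large-subunit proteins, showed another arrangement. *Mrpl13* had 26.4, 33.3 and 33.9 in the WT libraries and 25.8, 25.9 and 27.5 in the KO libraries. *Mrpl30* had 59.2, 76.7 and 76.1 in the WT libraries and 60.7, 59.1 and 63.8 in the KO libraries. In both genes WT replicates 2 and 3 were high, and WT replicate 1 lay with the KO libraries, so that the groups overlapped. The log2 fold changes were −0.22 (SE 0.10) and −0.19 (SE 0.11). *Mrpl17*, with 35.7, 43.8 and 42.5 in the WT libraries and 35.5, 33.5 and 38.1 in the KO libraries, had the same arrangement.

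*Mrpl9* had the largest positive log2 fold change of the family. Its product, the counterpart of bacterial L9, reaches out from the large subunit. The FPKM was 46.3, 42.1 and 42.0 in the WT libraries and 48.6, 46.6 and 50.6 in the KO libraries, so all KO values exceeded all WT values, although KO replicate 2 exceeded WT replicate 1 by little. The log2 fold change was 0.16 (SE 0.068) with a 95% confidence interval from −0.00042 to 0.32. *Mrpl18* came next, at 0.11 (SE 0.074), with overlapping groups of 86.5, 76.7 and 81.6 in the WT libraries and 92.5, 90.7 and 82.2 in the KO libraries.

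The stalk of the large subunit recruits the translation factors, and its proteins are encoded by *Mrpl10*, *Mrpl11* and *Mrpl12*. *Mrpl12*, which encodes the stalk protein proper, was at 26.0 ± 1.42 FPKM in WT and at 23.8 ± 1.25 FPKM in KO cells (SD, n = 3 each) and had a log2 fold change of −0.12 (SE 0.072). *Mrpl10* had 32.3 ± 1.80 and 32.4 ± 1.89, and *Mrpl11*, at the base of the stalk, had 15.0 ± 0.686 and 14.7 ± 0.435 (SD, n = 3 each). Differences between the groups were within 1 SD in *Mrpl10* and *Mrpl11*, whose log2 fold changes of 0.0046 and −0.022 turned sign with a library left out or, for *Mrpl11*, with median-ratio scaling. The lowest conserved members, *Mrpl33* and *Mrpl1*, had log2 fold changes of −0.13 (SE 0.12) and −0.051 (SE 0.082), and *Mrpl20*, one of the highest, −0.12 (SE 0.075), each with overlapping groups. *Mrpl55*, the counterpart of bacterial L31, had 18.4, 19.3 and 22.3 in the WT libraries and 18.4, 18.1 and 18.2 in the KO libraries, where WT replicate 1 and KO replicate 1 are equal at this rounding.

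In the mitochondria-specific large-subunit class, the split was 12 lower to 8 higher, with a median log2 fold change of −0.016. *Mrpl37* had 47.4, 50.8 and 49.0 in the WT libraries and 46.0, 41.5 and 44.0 in the KO libraries, with a log2 fold change of −0.16 (SE 0.065). *Mrpl38*, a protein of the central protuberance, had 38.3, 40.2 and 38.0 in the WT libraries and 33.3, 33.5 and 37.3 in the KO libraries, and a log2 fold change of −0.16 (SE 0.069). In both genes the KO values were all lower than the WT values, by a narrow gap between KO replicate 1 and WT replicate 1 in *Mrpl37* and between KO replicate 3 and WT replicate 3 in *Mrpl38*. *Mrpl42* was arranged likewise, with 61.7 ± 3.85 in WT and 57.0 ± 0.811 in KO cells (SD, n = 3 each).

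Of the other mitochondria-specific members with a known task, *Mrpl45*, whose product holds the exit of the ribosome at the inner membrane, had 66.1 ± 3.66 in WT and 61.1 ± 4.43 in KO cells (SD, n = 3 each), with a log2 fold change of −0.11 (SE 0.077). *Mrpl58*, a peptidyl-tRNA hydrolase that can release stalled chains and is also built into the large subunit, had 16.0 ± 0.227 in WT and 17.1 ± 1.15 in KO cells, and its KO values of 16.4, 16.4 and 18.4 were all above the WT values of 16.2, 15.7 and 16.1. In *Mrpl49* the KO values were above the WT values too, at 30.5, 31.5 and 32.6 against 30.2, 29.8 and 28.8, with a log2 fold change of 0.086 (SE 0.060). *Fau*, which starts beside it, had a mean FPKM of 1663 in WT and 1797 in KO cells, a log2 fold change of 0.12. Not every neighbour had the sign of its member, since *Ptcd2* had 0.024 beside *Mrps27* at −0.073. Whether such pairs change together was not tested. *Mrps30*, counted here by its place in the large subunit, had a log2 fold change of −0.0023 (SE 0.078), whose sign turned with other scalings, and *Mrpl52* had one of 0.0092 (SE 0.076).

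Among the 26 small-subunit members, 23 had a lower and 3 a higher KO mean, with a median log2 fold change of −0.065, against 34 and 16 with a median of −0.056 among the 50 large-subunit members tested. With median-ratio scaling the medians were −0.020 and −0.011. Members of both subunits then turned from lower to higher, such as *Mrps18c* and *Mrps25* in the small and *Mrpl11* and *Mrps30* in the large one. The contrast in counts between the subunits was smaller under that scaling. The difference between the subunits was not tested. *Mrps6*, which has the largest negative log2 fold change of the family and whose bacterial counterpart sits on the platform of the small subunit, had 9.89, 16.8 and 15.2 in the WT libraries and 12.4, 9.10 and 11.1 in the KO libraries. WT replicate 1 was lower than KO replicates 1 and 3, and the groups overlapped. At −0.31 (SE 0.20), the log2 fold change had the widest interval below 0 of all members, and it was −0.53 when WT replicate 1 was left out, −0.17 when WT replicate 2 and −0.20 when KO replicate 2 was.

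*Mrps10*, which encodes a protein of the head of the small subunit, had 17.5, 23.0 and 23.0 in the WT libraries and 18.2, 16.4 and 16.3 in the KO libraries. Here too WT replicate 1 lay among the KO libraries. For this gene the log2 fold change came to −0.29 (SE 0.12, adjusted p = 0.626 by limma and the Benjamini-Hochberg method), with a 95% confidence interval from −0.58 to −0.013. *Mrps2*, a protein between head and body, had 15.5, 17.98 and 16.0 in the WT libraries and 15.3, 14.5 and 13.8 in the KO libraries, and *Mrps9* had 39.8 ± 1.55 in WT and 37.4 ± 1.14 in KO cells (SD, n = 3 each). Every KO value lay below every WT value in both, and the log2 fold changes were −0.17 (SE 0.082) and −0.090 (SE 0.061).

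*Mrps12* encodes a protein of the decoding centre, where codon and anticodon meet. Its FPKM was 43.6 ± 0.665 in WT and 41.3 ± 5.12 in KO cells (SD, n = 3 each), with KO replicate 3 at 47.2, above every WT library. The log2 fold change was −0.083 (SE 0.092). *Mrps16* and *Mrps21*, the highest small-subunit members, had log2 fold changes of 0.045 (SE 0.075) and 0.021 (SE 0.057).

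The 3 *Mrps18* genes encode relatives of a single bacterial protein, S18, of which *Mrps18a* is found in the large subunit and the other 2 in the small one. Only *Mrps18c* was counted as conserved, and *Mrps18a* and *Mrps18b* were counted as mitochondria-specific although they are related to S18. *Mrps18a* had 25.7, 27.6 and 29.3 in the WT libraries and 24.0, 25.7 and 26.0 in the KO libraries, with a log2 fold change of −0.12 (SE 0.073). *Mrps18b* had 17.9, 22.3 and 26.6 in the WT libraries and 19.9, 17.4 and 17.1 in the KO libraries, with a log2 fold change of −0.27 (SE 0.14). *Mrps18c* had 10.8, 12.5 and 13.6 in the WT libraries and 14.1, 12.02 and 10.6 in the KO libraries, with a log2 fold change of −0.010 (SE 0.13) whose sign turned with median-ratio scaling. The groups overlapped in all 3, and exonic bases shared with other genes made up 30.5% in *Mrps18b* and 23.2% in *Mrps18c*. Among the low mitochondria-specific small-subunit members, *Mrps22*, *Mrps34* and *Mrps27* had log2 fold changes of −0.083 (SE 0.12), −0.082 (SE 0.087) and −0.073 (SE 0.089). *Mrps36*, of the 2-oxoglutarate dehydrogenase complex, had 41.6 ± 2.22 in WT and 42.8 ± 2.19 in KO cells (SD, n = 3 each) and a log2 fold change of 0.037 (SE 0.070).

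WT replicate 1 decided whether any member passed the test. Without it, 3 of the 77 members tested were called, all lower in KO cells. This share was below that of all genes tested, of which 9.4% were called (5.75% with lower KO values). The called members were *Mrps10*, whose log2 fold change became −0.42 (adjusted p = 0.0244), *Mrpl13*, with −0.34 (adjusted p = 0.0276), and *Mrpl30*, with −0.32 (adjusted p = 0.0288), by limma with Benjamini-Hochberg adjustment. At an unadjusted p under 0.05 there were 16 members, 15 of them lower, against 29.9% of all genes tested. The split was then 60 members with a lower and 17 with a higher KO mean, and the members' median was −0.073 on the log2 scale, against −0.050 over all genes tested. *Mrps6* had −0.53 in this comparison (adjusted p = 0.0595) and *Mrps18b* −0.41 (adjusted p = 0.0632), neither of which passed. With any other library left out, 0 members were called. The comparison without WT replicate 1 leaves out the WT library that lay among the KO libraries on the first principal component. Its calls over all genes tested rose to 1251, from 0 with all 6 libraries. Its p-values hold only for that choice of libraries. It sets WT replicates 2 and 3 against the KO libraries. Those 2 WT libraries also had the highest summed FPKM of the macrophage, erythroid and proliferation genes listed, and the lowest of the plasma cell markers. Erythroid markers summed to 16.2 and 13.5 FPKM in them and to at most 4.72 elsewhere, and plasma cell markers to 429 and 399 against 505 to 906. Single markers did not all follow these sums. *Irf4* was lowest in KO replicate 2 (96.9), *Sdc1* in KO replicate 1 (2.68) and *Mrc1* in WT replicate 3 (0.714), and *Hbb-bt* was highest in KO replicate 2 (3.77). Of the macrophage markers, 5 of 11 were tested and 2, *Lyz2* and *C1qa*, were called lower in this comparison. The sort for CD21 and CD23 described in the methods came before the culture. The part of these RNAs in the values of the members was not tested.

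**Figure D4:**
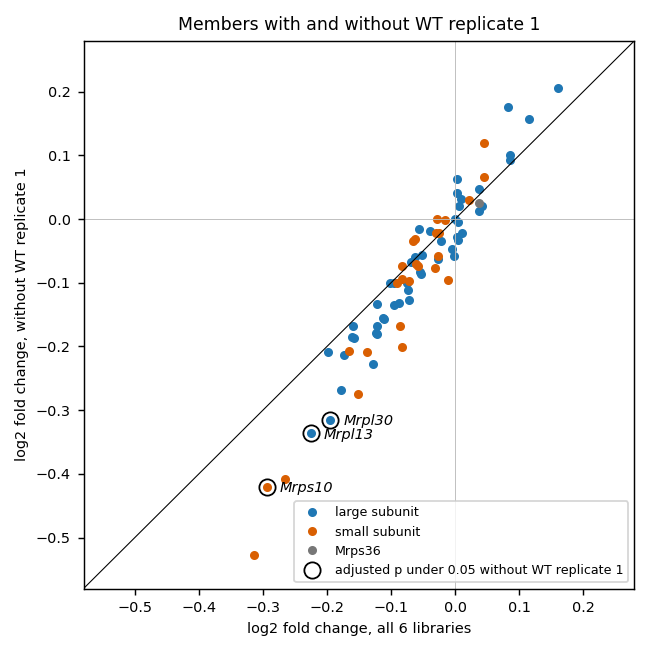
Log2 fold change of each of the 77 members tested without WT replicate 1 (vertical axis) against that with all 6 libraries (horizontal axis), KO against WT on log2(FPKM + 1), coloured by subunit. The diagonal marks equal values, and the 3 ringed members (*Mrps10*, *Mrpl13*, *Mrpl30*) are those with an adjusted p under 0.05 without that library.

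The members were set beside other genes of mitochondrial gene expression, listed by role, none of which was called with all 6 libraries (0 of the 13312 genes tested were). Of the 5 mitoribosomal proteins with other symbols, all 5 had a lower KO mean (median log2 fold change −0.063), and 3 did with median-ratio scaling. *Ptcd3*, a protein at the entry of the mRNA, had −0.20 (SE 0.11), *Gadd45gip1* −0.065 (SE 0.084) and *Dap3*, a GTP-binding protein of the small subunit, −0.063 (SE 0.058). All 12 translation factors had a lower KO mean, with a median of −0.076, and 9 did with median-ratio scaling or quantile normalization. *Gfm1*, the elongation factor that moves the ribosome along, had −0.16 (SE 0.11), and *Gfm2* and *Mrrf*, which take the ribosome apart after termination, had −0.15 (SE 0.082) and −0.12 (SE 0.074).

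Of the 26 assembly factors, 21 had a lower and 5 a higher KO mean (18 and 8 with median-ratio scaling), with a median log2 fold change of −0.083. *Mrm3*, which methylates the RNA of the large subunit, had −0.27 (SE 0.12), *Mtg1*, a GTPase of large-subunit assembly, −0.26 (SE 0.10) and *C1qbp*, a matrix protein, −0.25 (SE 0.11). In *Mtg1* the KO values of 13.6 to 14.7 lay below the WT values of 14.9 to 19.3, whereas the groups overlapped in the other two. Among the 11 genes of mitochondrial transcription and RNA stability, 9 were lower and 2 higher, with a median of −0.11. The mitochondrial RNA polymerase gene *Polrmt* had −0.15 (SE 0.078), *Elac2*, which trims tRNA precursors, −0.16 (SE 0.094) and *Slirp*, which stabilizes mRNA, −0.17 (SE 0.13). Of the 17 mitochondrial aminoacyl-tRNA synthetase genes, which supply the charged tRNAs, 15 were lower and 2 higher, with a median of −0.090, and 3 had an unadjusted p under 0.05, all lower, against 6.98% of all genes tested (4.5% lower).

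The 15 genes encoded in the mitochondrial genome, whose mRNAs the ribosomes read and whose rRNAs are built into them, lay on the other side of 0. All 15 had a higher KO mean under each scaling, with a median log2 fold change of 0.28, although the groups overlapped in each and 0 had an unadjusted p under 0.05. Their summed FPKM was 12526, 8199 and 8998 in the WT libraries and 9889, 12868 and 12966 in the KO libraries, so WT replicate 1 again lay with the KO libraries. *mt-Atp6* had 0.39 (SE 0.20), *mt-Nd1* 0.32 (SE 0.21) and *mt-Atp8* 0.67 (SE 0.47). Without WT replicate 1 the median was 0.43, and 2 of the 15 were called, both higher (*mt-Atp6* and *mt-Nd6*), where 9.4% of all genes tested were called (3.64% with higher KO values).

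Of the genes of the cytosolic ribosome, 13 of 80 tested had a lower and 67 a higher KO mean (median log2 fold change 0.054), and the split was 30 to 50 with quantile normalization. The subunits of complex I, the respiratory complex with the most subunits, were divided 23 to 13 with a median of −0.049 (19 to 17 with median-ratio scaling). The plot of related gene lists shows the members near the middle of the range of all genes, close to the complex I subunits. Differences between the lists were not tested.

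**Figure D5:**
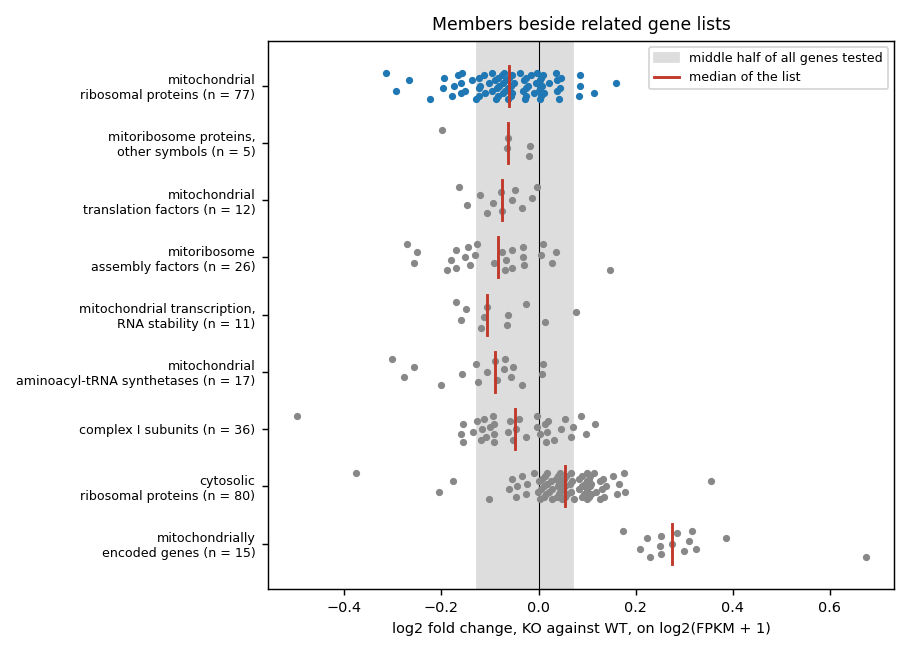
Log2 fold change of each gene tested (points), KO against WT on log2(FPKM + 1) with all 6 libraries, for the members and 8 related gene lists, with a red line at each list's median and a grey band from the lower to the upper quartile of all 13312 genes tested. The members' median is −0.061, that of the cytosolic ribosomal proteins 0.054 and that of the mitochondrially encoded genes 0.28, and the counts of lower and higher members shift with the scaling (57 to 20 here, 44 to 33 with median-ratio scaling).

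Regulators that act on mitochondrial genes were described in the same way. Of 10 such genes listed, 9 were tested, 7 with a lower and 2 with a higher KO mean, and the median log2 fold change of −0.037 turned to 0.0064 with median-ratio scaling. *Myc*, a growth regulator that binds the E-box, had an FPKM of 32.4, 49.2 and 51.7 in the WT libraries and of 30.8, 29.95 and 35.8 in the KO libraries. As in *Mrpl13* and *Mrpl30*, WT replicate 1 lay with the KO libraries, and the log2 fold change of −0.43 (SE 0.18) became −0.64 without that library. The coactivator gene *Pprc1* had −0.28 (SE 0.11) and *Ppargc1b*, which was low, −0.22 (SE 0.12). Among 15 proliferation genes, 14 were lower and 1 higher, with a median of −0.13, and their summed FPKM was 2271, 2781 and 2779 in the WT libraries and 2525, 2362 and 2215 in the KO libraries. *Tyms* and *Rrm2*, enzymes that supply DNA precursors, had −0.48 (SE 0.19) and −0.24 (SE 0.11), and *Mcm4*, of the replicative helicase, −0.19 (SE 0.12).

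Without WT replicate 1, genes of these lists were called on the lower side too, against the 5.75% of all genes tested that were called with lower KO values. They were *Ptcd3* among the 5 proteins with other symbols, *Mrm3* and *Mtg1* among the 26 assembly factors, *Vars2*, the valyl-tRNA synthetase gene, among the 17 synthetase genes, and *Rps27l* among the 80 cytosolic genes. *Myc* and *Pprc1* were called among the 9 regulators tested, with −0.64 (adjusted p = 0.0150) and −0.40 (adjusted p = 0.0186) by limma and the Benjamini-Hochberg method, and *Tyms* and *Rrm2* among the 15 proliferation genes. In the translation factors, the genes of mitochondrial transcription and RNA stability and the complex I subunits, 0 were called.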

How the data were processed

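Bulk RNA-seq values of 6 libraries, 3 WT and 3 *Hif1a* KO, were grouped by the sample labels. The authors filtered the reads, aligned them to mm10 with TopHat 2.0.12 on an index built with Bowtie 2.2.3, counted them per gene with HTSeq 0.6.1 and deposited FPKM values, 1 column per library. The annotation release, the strand option and the treatment of reads with several alignments are not given in the sources used here, so genes that overlap or have close copies are uncertain. Gene symbols, biotypes and positions came from GENCODE vM21 (GRCm38), which holds 46488 of the 46983 gene IDs. Whole reads were recovered from the FPKM of 25715 of the 25717 genes above 0 (tolerance 0.02 reads), at 25.0 to 37.2 M counted reads per library.

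The 13312 genes whose mean FPKM reached 0.5 were tested on log2(FPKM + 1) with limma 3.58.1 in R 4.3.3 (eBayes with trend), without covariates, and were called at a Benjamini-Hochberg adjusted p under 0.05 over all of them. This scale understates the differences of genes with low values. The rest was done in Python 3.11.15 (pandas 2.3.3, numpy 2.4.6; figures with matplotlib 3.10.9), and the fit was tested on simulated data. The members and the lists were chosen with earlier results of these data known. Members were named if they were among the 10 with the largest log2 fold change in size, the 10 largest whose groups do not overlap, or the 5 highest or 5 lowest by level, if they were not tested, or for their role. Up to 3 genes per related list were named by the size of their log2 fold change. *Mrpl22*, *Mrpl32*, *Mrpl34*, *Mrpl36* and *Mrps25*, the neighbours of members, *Gm42688*, *Ccdc142os*, *Vars2*, *Rps27l*, *mt-Nd6* and the single cell type markers were named after their values or sequences were seen. As alternatives, the pseudocount, the filter on low values and the trend were varied, the libraries were rescaled by median ratios, by quantiles or without the immunoglobulin genes, the replicate number entered as a block, voom was run on the recovered reads, and the fit was repeated without each library. Single-cell data were not used here.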

Additional observations from a re-analysis of the deposited data

How the results depend on the processing

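The number of members called stayed at 0 under every alternative except the leave-one-out fits, where it ranged from 0 to 3, and the number of all genes called ranged from 0 to 1251 (1 without KO replicate 1, 1251 without WT replicate 1). The median log2 fold change of the members stayed negative, from −0.073 without WT replicate 1 to −0.016 with median-ratio scaling. Of the 77 members, 13 turned sign with median-ratio scaling, 6 with quantile normalization and 28 in at least 1 leave-one-out fit. The values below are those of the members named by rule, not of all that turned sign. Median-ratio scaling gave 0.020 in *Mrpl11*, 0.032 in *Mrps18c* and 0.040 in *Mrps30*, quantile normalization gave 0.0092, 0.028 and 0.031 in these genes, and *Mrps30* had 0.0022 without immunoglobulin genes and 0.00056 with voom. With each library left out in turn, the log2 fold change ranged from −0.10 to 0.0036 in *Mrpl1*, −0.037 to 0.045 in *Mrpl10*, −0.046 to 0.012 in *Mrpl11*, −0.063 to 0.046 in *Mrpl52*, −0.0021 to 0.095 in *Mrps16*, −0.11 to 0.082 in *Mrps18c*, −0.0026 to 0.047 in *Mrps21*, −0.058 to 0.040 in *Mrps30* and −0.00034 to 0.079 in *Mrps36*. The cause was not tested. The labels do not say whether the replicate numbers pair the samples. The deviations of same-numbered WT and KO libraries correlated at −0.099, 0.14 and −0.28, and those of differently numbered ones at −0.20 to 0.30. With 3 libraries per group these correlations cannot decide it. With the replicate block, 0 genes and 0 members were called, and 694 genes and 0 members had an unadjusted p under 0.05. Each member tested rests on at least 152 reads in a library. Each comparison rests on 3 libraries per group, except the leave-one-out fits, in which 1 group has a library fewer.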
